A study of Rattus norvegicus with 4 samples.

Results

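Transcripts listed at 3 genes known for their use in neurons, Gria2, Syn1 and Rbfox3, were followed through 4 RNA sequencing libraries of rat cortical astrocytes. The members were every transcript row whose gene name was Gria2, Syn1 or RGD1560070, the listed name of Rbfox3. This gave 5 of 20524 rows, or 3 of 17283 loci once rows that share a gene name on 1 chromosome were summed. Gria2 and Syn1 had 2 rows each and Rbfox3 had 1. All 5 rows are NONCODE entries with AceView names and stand in a table of long noncoding RNAs. They are noncoding transcripts listed at these genes, and reads of the messenger RNA could be counted in them where the sequences overlap.

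The astrocytes were taken from cerebral cortices of neonatal Wistar rats and grown on coverslips placed over neurons, separated from them by paraffin dots. The 2 control libraries are labelled untreated. The other 2 came from co-cultures under ischemic preconditioning, here oxygen and glucose deprivation (OGD) at 1% oxygen for 45 min and then 24 h in normal medium and air. Both groups had neurons below them. Separate cultures for the libraries of 1 group are not stated in the labels, and p-values therefore cover only the differences among these libraries, which may be technical.

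Gria2 encodes GluA2, the subunit that keeps most AMPA-type glutamate receptors from passing calcium once its transcript has been edited by the enzyme of Adarb1. Syn1 encodes synapsin I, a phosphoprotein on the surface of synaptic vesicles that tethers them in the nerve terminal. Rbfox3 encodes the splicing factor known as NeuN, whose antibody is the usual stain for mature neurons. Synapsin I and NeuN serve as neuronal markers, whereas AMPA receptor subunits also occur in glia.

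The listed transcripts at these genes did not move together. At Syn1 the summed count was 2 and 1 in the controls and 98 and 45 with OGD. At Gria2 it was 223 and 275 in the controls and 187 and 222 with OGD, and at Rbfox3 19 and 20 in the controls and 6 and 19 with OGD. By edgeR's quasi-likelihood test over 9579 loci, 0 of the 3 passed an adjusted p of 0.05, where 8 of all loci (0.0835%) passed. At an unadjusted p below 0.05 only Syn1 of the 3 passed, against 224 of all loci (2.34%). By DESeq2 Syn1 passed and the other two did not, against 38 of 9579 loci given an adjusted p (0.397%). The groups did not overlap at Syn1 alone of the 3, measured in CPM (lncRNA counts scaled to a common library total and TMM-normalised), against 28.0% of tested loci.

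**Figure D1:**
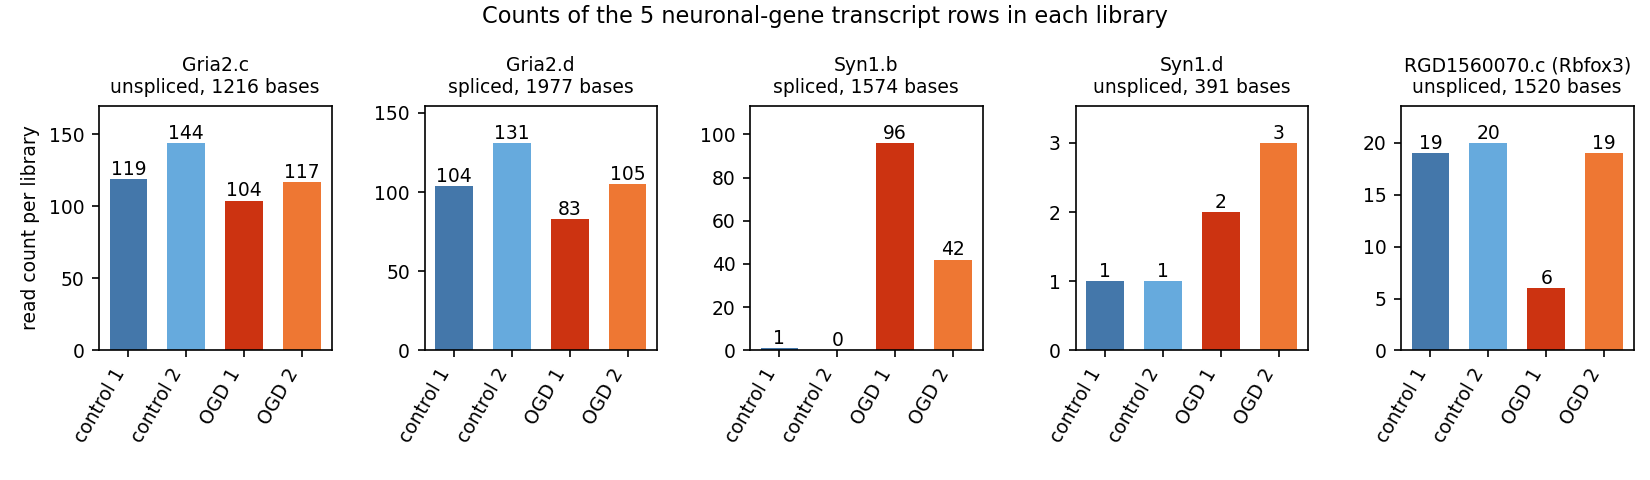
Read counts (vertical axis, own scale per panel, from 0) of the 5 transcript rows in control libraries 1 and 2 (blue) and OGD libraries 1 and 2 (red, orange), with the count over each bar. Syn1.b stands at 1 and 0 in the controls and at 96 and 42 with OGD, while the counts of Gria2.d overlap between groups, those of Gria2.c are 119 and 144 in the controls against 104 and 117 with OGD, and the Rbfox3 row is low in OGD 1 alone.

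Syn1 was the member with the large difference, and nearly all of it lay in 1 row. The row Syn1.b is spliced, 1574 bases long, and lies on chromosome X from 1376684 to 1379200 in the coordinates of the tables, whose genome build is not given with certainty in the sources used here. It had 1 count in control 1, 0 in control 2, 96 in OGD 1 and 42 in OGD 2. Both OGD libraries were above both controls, and OGD 1 was above OGD 2.

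The other Syn1 row, Syn1.d, is unspliced, 391 bases long, and lies 334 bases away, from 1375959 to 1376349. It had 1 and 1 counts in the controls and 2 and 3 with OGD, too few to be tested. Its ratio of summed counts, scaled by library total, was 2.59 with an exact 95% binomial interval of 0.425 to 27.2, which covers counting error only. At this depth a small difference in Syn1.d was not detectable. Its interval ends below the ratio of 143 at Syn1.b, whose own interval starts at 25.3, so the intervals overlap slightly. Whether the rows differ in their response was not tested. Syn1.b made up 98.0% and 93.3% of the Syn1 counts in OGD 1 and OGD 2.

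Scaled by library total, the summed counts of Syn1.b were 143-fold higher with OGD, with an exact 95% counting interval of 25.3 to 5696. The interval is wide because the control sum is a single read. As a locus, Syn1 measured 0.563 ± 0.233 CPM in the controls and 27.8 ± 12.8 CPM with OGD (SD, n = 2 per group). The ratio of its summed counts was 49.6, with a counting interval of 16.6 to 243. In edgeR its log2 fold change was 5.50 (SE 0.63, adjusted p = 0.185), and in DESeq2 the adjusted p was 8.6e-05. Among the 9579 tested loci this was the 9th highest log2 fold change and the 21st smallest p. Tested row by row over 10892 rows, Syn1.b had a log2 fold change of 6.82 (SE 0.90) with an adjusted p of 0.302 in edgeR, where 1 row of all passed (0.00918%). DESeq2 gave the row an adjusted p of 0.00243 and called 85 of the 14042 rows to which it gave one (0.605%). Syn1.b was one of 13 rows (0.0633% of 20524) with at most 3 counts in each control and at least 30 in each OGD library, and 15 rows (0.0731%) showed the opposite. These limits were set after the counts of Syn1.b had been seen.

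With the replicate number as a block, the Syn1 locus passed in edgeR at an adjusted p of 0.0312, as one of 22 of the 9579 loci (0.230%). What the number stands for is not stated in the labels. The numbers did separate libraries at some fibroblast loci: Lox, the gene of lysyl oxidase, had 4 counts in control 1 and in OGD 1, but 3202 in control 2 and 2684 in OGD 2. Col1a1, a collagen chain, had 313 and 329 counts in the libraries numbered 1 and 693 and 593 in those numbered 2. Their part in the Syn1 value under the block was not tested. Leaving out 1 library at a time kept the log2 fold change of Syn1 between 4.94 and 5.97, with adjusted p from 0.0724 to 0.463.

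At Araf and Cfp, the listed neighbours of Syn1 that could be tested, the groups overlapped. In the RefSeq annotation of assembly GRCr8, Cfp precedes the start of Syn1 and Araf overlaps its end. The gene of the protease inhibitor Timp1 lies inside Syn1. This annotation gave the order and strand of the neighbours, whereas their distances come from the deposited coordinates. Timp1 and Araf lie on the strand opposite to Syn1. The sources used here do not say whether reads were counted by strand, and without strand reads of Syn1 and of these genes could not be told apart. Timp1 was not analysed here.

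The listed row at Araf, which encodes a RAF-family kinase, starts 9.91 kb past Syn1.b. It had 171 and 91 counts in the controls and 146 and 114 with OGD, and the groups overlapped. The 2 rows at Cfp, the gene of the complement regulator properdin, lie about 60 kb on the other side, at gaps of 59.3 and 60.1 kb. Together they had 142 and 77 counts in the controls and 116 and 127 with OGD. Log2 fold changes were 0.06 (SE 0.33) at Araf and 0.23 (SE 0.33) at Cfp, both with an adjusted p of 1.00 in edgeR. The row sweyby, 71.1 kb away, had 2 counts in each of the 4 libraries. Whether the counts of Syn1.b differ from those of Araf in their response was not tested.

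**Figure D2:**
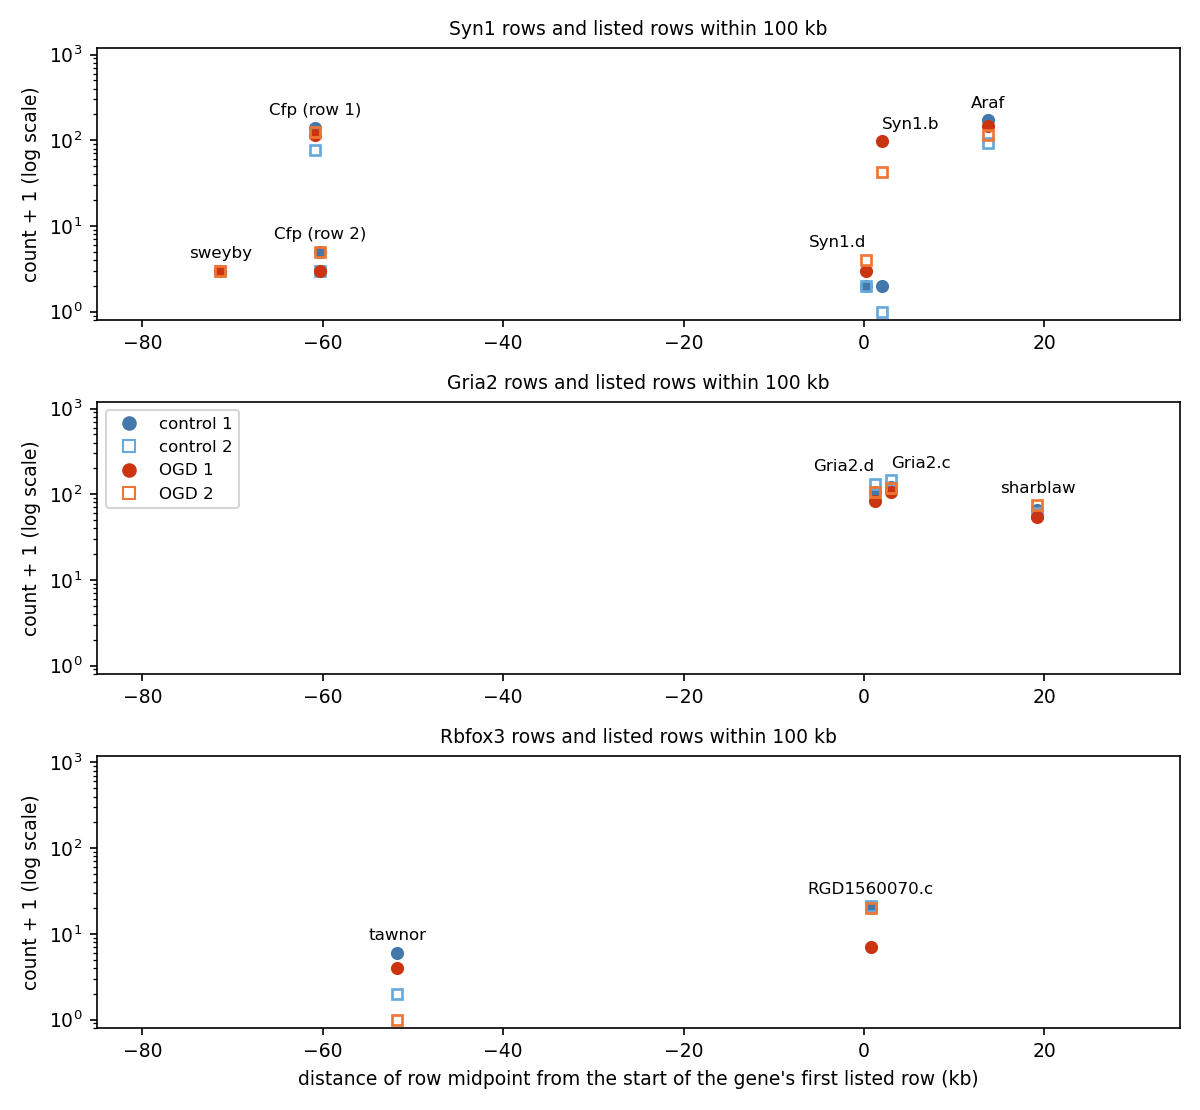
Count + 1 (log scale) of each listed row within 100 kb of Syn1, Gria2 and Rbfox3, at the distance in kb of its midpoint from the start of the gene's first listed row, for control 1 and 2 (blue) and OGD 1 and 2 (red, orange). Syn1.b is the row whose control and OGD points lie far apart, while Syn1.d beside it stays at 1 to 3 counts and Araf at 91 to 171.

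RefSeq's promoter table holds 1 of the 3 members, Syn1. The bases before its start are shown because the synapsin promoter is widely used to drive expression in neurons, and because they lie at the Cfp end of the gene, whereas the listed Syn1 rows lie nearer to Araf. They span chrX:3725495-3725744 of GRCr8 on the plus strand, a build that need not be that of the tables, and run 5′ to 3′ to the base before the start.
Syn1 promoter: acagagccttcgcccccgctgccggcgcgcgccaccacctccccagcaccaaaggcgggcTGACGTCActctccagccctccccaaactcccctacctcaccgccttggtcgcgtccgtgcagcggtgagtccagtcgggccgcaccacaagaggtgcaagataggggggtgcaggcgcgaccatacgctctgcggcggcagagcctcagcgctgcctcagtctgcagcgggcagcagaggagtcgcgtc
The capitals mark TGACGTCA, the cAMP response element, which reads the same on both strands. It begins 190 bases before the start, and 531 of 33469 promoters in the table (1.59%) hold it in the same 250 bases. The stretch holds 24 CpG dinucleotides, where the median promoter holds 5. The listed Syn1 rows were not placed on this sequence, so the match describes the gene and not the counts.

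Gria2 was the most abundant member, and its 2 rows behaved alike. Gria2.c is unspliced, 1216 bases long, and lies on chromosome 2 from 179589864 to 179591079. Its counts were 119 and 144 in the controls and 104 and 117 with OGD. Gria2.d is spliced, 1977 bases long, and lies from 179587442 to 179589810, 53 bases before Gria2.c. Its counts were 104 and 131 in the controls and 83 and 105 with OGD. In both rows control 2 was highest and OGD 1 lowest. The groups overlapped in CPM in both rows, whereas the raw counts and FPKM of Gria2.c were higher in both controls than in either OGD library.

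Per length, Gria2.c stood above Gria2.d in every library. The deposited FPKM (scaled by row length and library total) were 3.92 and 4.49 in the controls and 3.43 and 3.85 with OGD for Gria2.c. They were 2.11 and 2.51 in the controls and 1.68 and 2.12 with OGD for Gria2.d. The ratio of the rows' FPKM lay between 1.79 and 2.04, so their proportion was nearly the same in the 4 libraries. Gria2.c held 52.4% to 55.6% of the Gria2 counts.

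The Gria2 locus measured 95.4 ± 20.1 CPM in the controls and 81.5 ± 15.7 CPM with OGD (SD, n = 2 per group). Its log2 fold change was -0.23 (SE 0.26, adjusted p = 1.00 in edgeR), smaller than the spread between libraries. The ratio of summed counts was 0.855, with a 95% counting interval of 0.748 to 0.976 that leaves out the spread between libraries. The value rested on which library was kept: the log2 fold change was 0.013 without control 2 and -0.030 without OGD 1, but -0.42 without control 1 and -0.44 without OGD 2. The locus lay above 82.7% of tested loci in mean CPM. Its nearest listed neighbour, sharblaw, lies 15.3 kb away and had 65 and 60 counts in the controls and 53 and 73 with OGD.

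Rbfox3 was measured by 1 unspliced row, RGD1560070.c, 1520 bases long, on chromosome 10 from 107515817 to 107517336. It had 19 and 20 counts in control, 6 in OGD 1 and 19 in OGD 2. OGD 1 was low, and OGD 2 was level with the controls in CPM, at 7.92 beside 6.91 and 7.97. As a locus Rbfox3 measured 7.44 ± 0.746 CPM in the controls and 5.09 ± 4.005 CPM with OGD (SD, n = 2 per group).

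Its log2 fold change was -0.56 (SE 0.65, adjusted p = 1.00 in edgeR). Without OGD 1 it was 0.10, and without OGD 2 it was -1.70, so the value rests on which OGD library is kept. The ratio of summed counts was 0.667, with a 95% counting interval of 0.387 to 1.13. The nearest listed row, tawnor, lies 51.3 kb away and had 5 and 1 counts in the controls and 3 and 0 with OGD.

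On the FPKM scale, which allows levels of different rows to be compared, the order in control was Gria2.c at 4.21 ± 0.402, Gria2.d at 2.31 ± 0.286, Rbfox3 at 0.500 ± 0.00145, Syn1.d at 0.0997 ± 0.00384 and Syn1.b at 0.0127 ± 0.0180 (SD, n = 2). After OGD it was Gria2.c at 3.64 ± 0.294, Gria2.d at 1.90 ± 0.311, Syn1.b at 1.76 ± 0.975, Rbfox3 at 0.329 ± 0.241 and Syn1.d at 0.256 ± 0.0718. Gria2.d and Syn1.b did not differ beyond their spread with OGD, nor did Rbfox3 and Syn1.d. The order of the Syn1 rows in the controls rests on counts of 0 or 1.

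**Figure D3:**
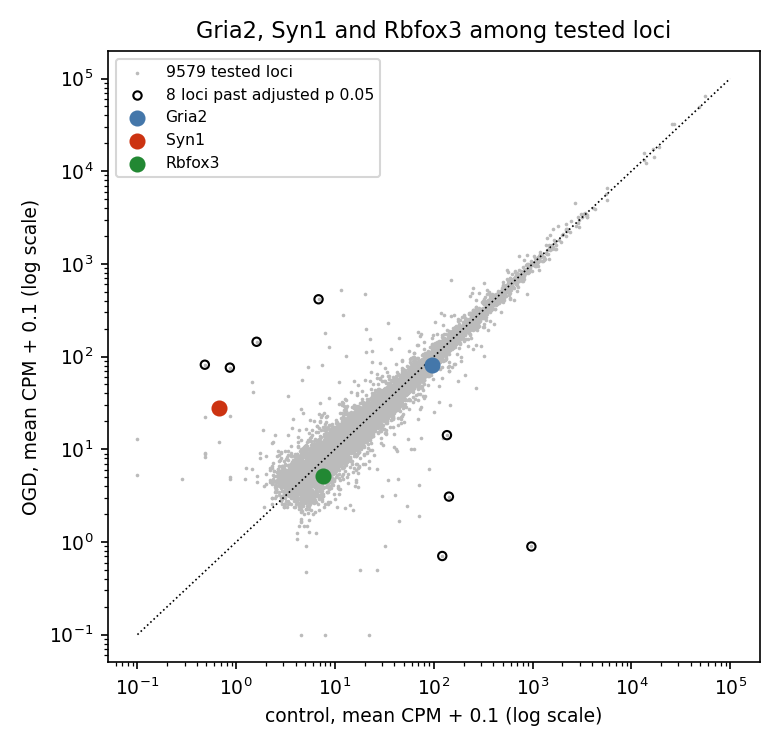
Mean CPM + 0.1 of each tested locus in control (horizontal) and with OGD (vertical), both on log scales, with the line of equality dotted and the 8 loci past an adjusted p of 0.05 circled. Gria2 and Rbfox3 lie in the main cloud near the line, and Syn1 lies above it, at 0.563 CPM in the controls and 27.8 CPM with OGD.

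Other genes used by neurons were taken as 4 lists, matched to loci by current or former symbol on the same chromosome. Of 42 neuron markers 15 had a listed locus, and 6 of these could be tested. By edgeR 0 passed in either direction, with 3 above 0 and 3 below. Over all 9579 tested loci 0.0835% passed in edgeR and 49.7% were above 0, and these shares apply beside each of the 4 lists. By DESeq2, and in edgeR with the replicate block, 1 neuron marker passed, Syn1. The median log2 fold change was 0.07, against -0.0016 over all tested loci. The one neuron marker with an unadjusted p below 0.05 was Syn1. The other 27 markers, among them Tubb3, Map2, Dcx, Snap25 and Syp, were not analysed here.

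Leaving out the 3 members, the 12 remaining neuron marker loci summed to 110 and 81.7 CPM in the controls and 75.7 and 90.1 CPM with OGD, and the groups overlapped. None of the 12 was at 0 in all 4 libraries, but only 3 had enough counts to be tested. Among the rest, Nefl had 1 and 1 counts in the controls and 1 and 2 with OGD. Elavl4 had 1 and 0 in the controls and 1 and 1 with OGD. Most of that sum was Dlg4, which encodes the postsynaptic scaffold PSD-95, with 218 and 145 counts in the controls and 128 and 122 with OGD. Its log2 fold change was -0.47 (SE 0.25, adjusted p = 1.00 in edgeR). Uchl1, a deubiquitinating enzyme abundant in neurons, had 38 and 35 counts in the controls and 38 and 62 with OGD. In bulk RNA, fewer cells of a type and less RNA per cell cannot be told apart. The summed level of these neuron marker loci was not higher in either OGD library than in both controls, but this sum rests mostly on Dlg4. Whether neuronal RNA had a part in the Syn1 counts was not tested. Of the 3 that could be tested, Dlg4 was the 1 below 0 in log2 fold change. The other 2 were above 0, Uchl1 at 0.53 (SE 0.38) and Thy1 at 0.36 (SE 0.65).

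Of the glutamate receptor genes and their partners, 13 of 55 had a locus and 8 were tested. By edgeR 0 passed, 3 were above 0 and 5 below, and the median log2 fold change was -0.11. Gria3, the only other AMPA receptor subunit with a listed locus, had 80 and 128 counts in the controls and 49 and 102 with OGD. Its row stood at 11.96 and 18.1 FPKM in the controls and at 7.33 and 15.2 FPKM with OGD, above both Gria2 rows per length in every library. Adarb1, the gene of the editing enzyme named above, had 124 and 234 counts in the controls and 151 and 157 with OGD. The scaffold gene Dlg1 was at 0.16 (SE 0.26) on the log2 scale and Dlg2 at 0.83 (SE 0.68), both with an adjusted p of 1.00.

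Of the synaptic vesicle genes, 18 of 52 had a locus and 7 were tested. By edgeR 0 passed, 4 were above 0 and 3 below, and the median log2 fold change was 0.03. By DESeq2, and in edgeR with the replicate block, 1 of the 7 passed, Syn1. Groups did not overlap in CPM at 2 of the 7, Syn1 and Cplx2, against 28.0% of all tested loci. Cplx2, which encodes the fusion regulator complexin 2, had 102 and 85 counts in the controls and 124 and 103 with OGD. Its log2 fold change was 0.34 (SE 0.22, adjusted p = 1.00). Synj1 and Dnm1, of vesicle endocytosis, were at -0.41 (SE 0.49) and -0.27 (SE 0.50). Syn3, the other synapsin gene with a locus, had 0 and 1 counts in the controls and 1 and 0 with OGD. Without Syn1 the vesicle loci summed to 170 and 122 CPM in the controls and 154 and 130 CPM with OGD.

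Of the Rbfox family and other neural splicing genes, 17 of 32 had a locus and 10 were tested. By edgeR 0 passed, 5 were above 0 and 5 below, and the median log2 fold change was 0.06. Rbfox2, listed as Rbm9 and found in many tissues, had 105 and 82 counts in the controls and 94 and 105 with OGD. Rbfox1, listed as A2bp1, had 3 and 1 in the controls and 0 in both OGD libraries, under the level that can be tested. Celf3 had 33 and 90 counts in the controls and 101 and 92 with OGD, with a log2 fold change of 0.68 (SE 0.54). Ptbp2, the splicing repressor of developing neurons, had 165 and 136 in the controls and 140 and 136 with OGD. Celf1 and Elavl1 were at -0.09 (SE 0.18) and -0.41 (SE 0.26).

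**Figure D4:**
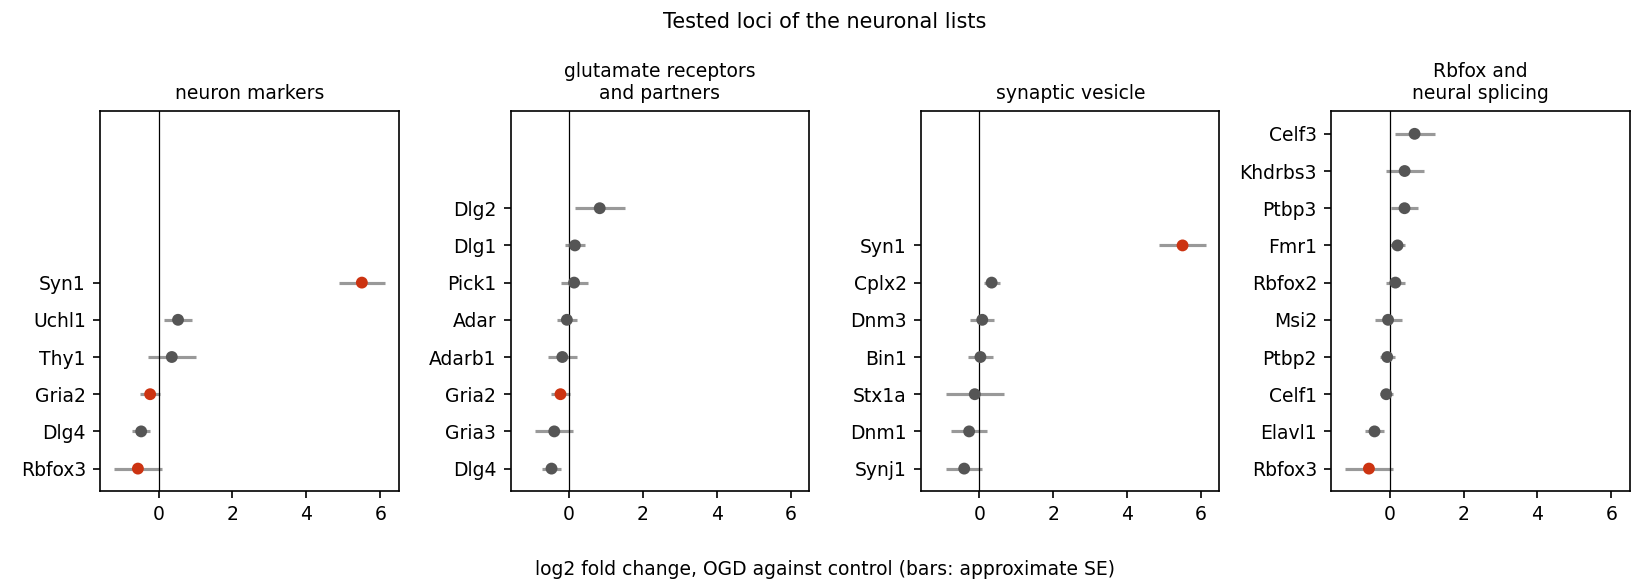
Log2 fold change of OGD against control (horizontal, bars are approximate SE) for each tested locus of the 4 neuronal lists, with Gria2, Syn1 and Rbfox3 in red and other loci in grey. Syn1 stands at 5.50, and every other locus lies between -0.56 and 0.83.

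Loci named after markers of other cells gave the setting. By edgeR 0 loci of these lists passed the threshold, against 0.0835% of all tested loci. In the 4 libraries, 6 astrocyte loci summed to 49.4 to 89.3 CPM, led by Gfap, and 3 oligodendrocyte lineage loci to 7.91 to 17.1 CPM. In control and OGD libraries the ranges were 34.6 to 113 and 20.3 to 56.7 CPM for 8 microglia and macrophage loci. The 4 fibroblast loci, led by Fn1, summed to 681 CPM in control 1 and 1095 in OGD 1, and to 3012 in control 2 and 2707 in OGD 2, so both libraries numbered 2 were above both numbered 1. The 4 endothelial and mural loci summed to 17.5 and 20.7 CPM in the controls and 44.4 and 49.6 CPM with OGD. This was the one of the 5 lists whose groups did not overlap with OGD higher, and the difference lay chiefly at Abcc9. Abcc9 had 6 and 17 counts in the controls and 85 and 54 with OGD. The groups overlapped at Myh11 (36 and 31, then 32 and 58) and Pecam1 (4 and 2, then 0 and 6), and Tek had 2 and 2, then 1 and 1. The part of these loci in the Syn1 counts was not tested. The 4 libraries held 2513804 to 2646300 lncRNA counts.

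The loci most like each member were found by distance between log2 CPM profiles over the 4 libraries, centred on their mean, among 2694 tested loci with a RefSeq symbol, members included. With 4 libraries the measure describes these libraries only. Nearest to Syn1 were Phldb3 (distance 0.81), with 0 counts in both controls and 33 and 32 with OGD, Fars2 (1.19), with 2 and 2 then 49 and 66, and C3h9orf50 (1.27), with 2 and 1 then 32 and 28. Fars2 encodes the mitochondrial phenylalanine tRNA synthetase. None of these 3 passed in edgeR, at adjusted p of 0.247, 0.110 and 0.200. Tested as rows by DESeq2, Phldb3 and Fars2 passed, at adjusted p of 0.00243 and 0.000159, beside 0.00243 at Syn1.b. The DESeq2 value of C3h9orf50 is not given here.

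Nearest to Gria2 were Edem1, a factor of protein degradation at the endoplasmic reticulum, Amdhd2 and Zmat3, at distances of 0.049, 0.078 and 0.085. Edem1 had 1601 and 1960 counts in the controls and 1391 and 1638 with OGD. Nearest to Rbfox3 were Nf2, the gene of the tumour suppressor merlin, Spns1 and Dazap2, at 0.16, 0.22 and 0.29. All 3 shared the low value of OGD 1, which follows from their choice by likeness to Rbfox3. Nf2 had 25 and 23 counts in control, 7 in OGD 1 and 24 in OGD 2, and Dazap2 had 1336, 1179, 383 and 1111 in the same order.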

How the data were processed

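The authors deposited 1 table per library with raw read counts and FPKM values for the same 20524 transcripts, per the file headers. Per the submitters' processing notes, HISAT2 and StringTie were used; versions, the counting program and its strand setting are in none of the sources used here. The notes name build mm9, whereas the tables hold rat identifiers, so coordinates are printed as the tables give them. The deposited FPKM are relative to library totals of 24934040 to 26371055.

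Counts of rows sharing a gene name on 1 chromosome were summed to 17283 loci, and 4549 carried a RefSeq symbol. Loci and, separately, rows went through edgeR 4.0.16 in R 4.3.3 (filterByExpr, TMM, quasi-likelihood F test on group alone, Benjamini-Hochberg over all tested features). SE of a log2 fold change is its size over the square root of F. CPM use TMM-adjusted totals of the tested loci. Ratios of summed counts have exact 95% binomial intervals. Alternatives were DESeq2 1.42.0, other scalings, no filter, merged loci, rows unsummed, leaving out each library, and the replicate number as a block. The steps were tested on simulated counts.

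Members, lists and tests were chosen with earlier results of these data known. Named are all members, listed neighbours within 100 kb or nearest, the 3 most similar loci, and of each list up to 3 loci by mean CPM and by smallest p. Gria3, Syn3, Rbfox1 and Rbfox2 fall outside this rule and were chosen as relatives of the members after their values were seen. Figures were drawn with matplotlib 3.10.9.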

Additional observations from a re-analysis of the deposited data

How the results depend on the processing

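Of the 9579 loci 8 passed, and 0 without a filter on low counts (403 at an unadjusted p below 0.05), 22 with the replicate number as a block, 38 with DESeq2 and 0 to 12 with a library left out. Of the 10892 rows 1 passed, and 8 with totals implied by FPKM, 0 with the replicate block (420 at an unadjusted p below 0.05) and 0 with any library left out (343 to 466). DESeq2 gave 14042 rows an adjusted p and called 85. The cause was not tested. Some settings also had fewer libraries or a larger number of features. The Syn1 locus newly passed with the replicate block, at a log2 fold change of 5.51, and with DESeq2, at 5.61, and kept its direction under every alternative. With a library left out it lay between 4.94 and 5.97, and Syn1.b, which did not pass in edgeR under any of them, between 6.04 and 9.08. The block moved no other member across the threshold; libraries with 1 number correlated at 0.300 across loci in how they deviated from their groups. Directions of Gria2 and Rbfox3, which had not passed, held except with a library left out. Gria2 lay between -0.44 and 0.013, its row Gria2.c between -0.38 and 0.027, and Rbfox3 between -1.70 and 0.10 as a locus and as a row. Control sums of 1 to 3 counts limit the precision of every fold at Syn1.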

Other observations

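Syn1.b was among 13 rows that had at most 3 counts in each control and at least 30 in each OGD library. Of these 13, 4 were spliced AceView entries, 3 unspliced and 6 StringTie transcripts, and 9 belonged to loci with other rows. Of all 20524 rows, 7454 were spliced AceView entries, 8828 unspliced and 2437 StringTie transcripts, and 15126 were the only row of their locus. Of the 15 rows with the opposite pattern, 2 were spliced, 3 unspliced and 10 of other form, and 10 belonged to loci with other rows. Cnep1r1 and MSTRG.34896 are given as examples. At Cnep1r1, listed as Tmem188, 1 row had 0 and 0 counts in the controls and 41 and 46 with OGD, while the other 4 rows summed to 548 and 619 in the controls and 530 and 457 with OGD. At MSTRG.34896, a StringTie locus, 1 row went from 0 and 0 to 1017 and 1001 counts while the other went from 1074 and 934 to 0 and 0. These rows are nearly equal in length, at 4519 and 4520 bases, and how reads were assigned between them was not tested. Syn1.b has 1 other row, and its sum stood at 1 and 1 counts in the controls and 2 and 3 with OGD.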
